A study of Macaca mulatta with 24 samples.

Results

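The 200 liver-restricted transcripts described here are those with the highest liver levels among 440 that were at least 20 times higher in the macaque liver than in the lung and hippocampus. No other tissue was compared, and 45579 transcripts were listed. They were chosen by their measured levels. A transcript qualified when its mean over the 8 liver libraries was at least 10 CPM (counts per 1000000, that is, the count divided by the library total and multiplied by 1000000) and at least 20 times its mean in the lung and in the hippocampus, and the 200 with the highest liver mean were kept. Levels in the 3 tissues are therefore given as a description, and tests were made of the treatment comparison. The choice used the mean over both treatments and not their difference, but a transcript could qualify through the treatment where it was high. Chosen on the clinical or the oral libraries alone, the 200 highest shared 191 and 194 transcripts with this list, respectively. Fetal tissues came from Rhesus macaques whose mothers all received betamethasone, and 4 fetuses per treatment gave a library from each tissue. With the clinical treatment the mothers received betamethasone phosphate combined with betamethasone acetate by intramuscular injection, as 2 doses of 0.25 mg/kg 24 hr apart. With oral Beta-P they received 3 doses of 0.15 mg/kg of betamethasone phosphate by mouth, 12 hr apart. Delivery was at 5 days in both groups, and gestational age was 132.75 ± 0.5 d (SD, n = 4, 132 to 133 d) with the clinical treatment and 129.75 ± 2.22 d (n = 4, 127 to 132 d) with oral Beta-P. Animals are numbered from 1 to 4 within each treatment. No untreated animals are among these libraries, so each difference is between 2 corticosteroid treatments.

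Hepatocytes, the main cells of the liver, make and secrete most plasma proteins, among them albumin, apolipoproteins, transport proteins and clotting factors, and their messenger RNA pool is dominated by the transcripts for these proteins. Before birth the liver is also a site of blood cell formation. Corticosteroids act through the glucocorticoid receptor, which is active in hepatocytes and regulates genes of glucose and amino acid metabolism. The tables used here list Ensembl transcript identifiers, and 0 of the 200 could be matched to a gene name, so no gene, pathway or cell type marker is named, the transcripts could not be ordered by role, and the identity of each tissue was not checked by markers.

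Libraries were made from poly(A)-selected RNA and read as paired ends of 75 bp. Totals were 25803825 to 32122919 counts in the liver (median 28654724), 21088272 to 28641485 in the lung and 22537044 to 35254898 in the hippocampus. Values are whole counts in the lung and hippocampus tables and estimated counts in the liver table, so the ratio between tissues also compares 2 kinds of count table. No pair of liver libraries was identical, since the closest pair differed in 33859 transcripts. Oral animal 3, the youngest at 127 d, was alone in a second sequencing run among the liver libraries. Counting error is small beside the spread between animals for transcripts of this level, and no replicate beyond 1 library per animal and tissue was made. In these tissue homogenates, fewer cells of a type and less RNA per cell cannot be told apart.

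The 200 transcripts took 38.1% ± 2.21 of all liver counts (SD, n = 8 libraries, 34.2 to 41.4%). The single highest, ENSMMUT00000005417.3, took 11.1% ± 0.622 (9.78 to 11.7%). The first 10 took 25.2% ± 2.41, the first 50 took 33.5% and the first 100 took 36.2%, so the lower 100 of the list added little to the sum. All 440 qualifying transcripts took 39.1%. Of the 10 most abundant liver transcripts 6 were in the list, as were 10 of the first 20 and 59 of the first 100. The list held 46 of the 80 transcripts with at least 1000 CPM in the liver and 7 of the 13 with at least 10000 CPM. The median of the 200 was 300.7 CPM. CPM is a share of counts and is not per length, so these ranks order counts and not molecules.

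The lower limit of the list fell between ENSMMUT00000003971.3 with a liver mean of 114.7 CPM, the last included, and ENSMMUT00000013044.3 with 108.4 CPM, the next to qualify. At or above the level of the last one there were 805 liver transcripts, of which the list was 24.8%. The other 605, whose liver mean was under 20 times that of the lung or hippocampus, serve below for comparison. They share this lower limit but were not matched to the list in level, since the list held 46 of the 80 transcripts with at least 1000 CPM. The most abundant of them was ENSMMUT00000038274.2, at 19540 CPM in the liver, 8152 CPM in the lung and 18806 CPM in the hippocampus. At the limit of the tissue ratio, ENSMMUT00000063580.1 had 218.7 CPM in the liver and 10.7 CPM in the lung, a ratio of 20.4. Just outside it, ENSMMUT00000021198.3 had 29.2 CPM in the liver and a ratio of 19.8.

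**Figure D1:**
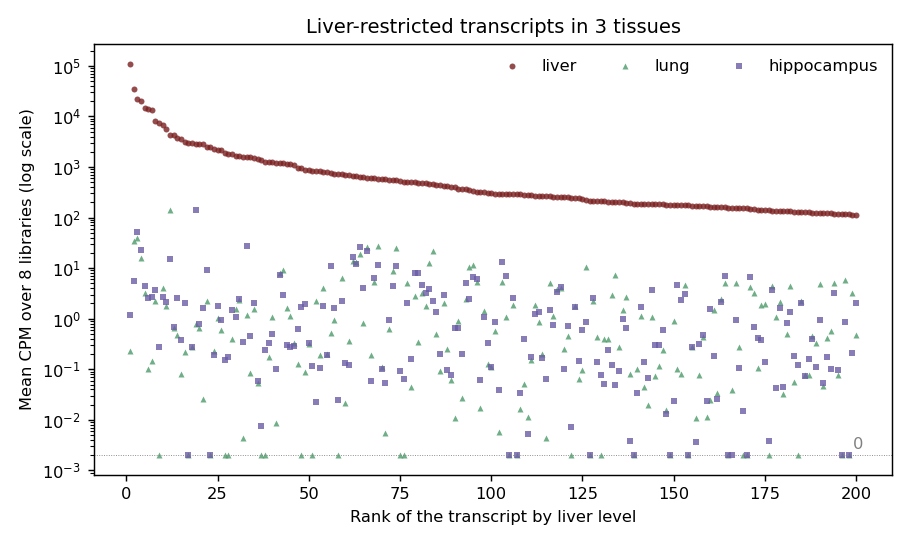
Mean CPM over 8 libraries (log scale) of the 200 transcripts in the liver, lung and hippocampus, by rank of the liver level, with a mean of 0 drawn on the dotted line. The liver level falls from 111103 CPM at rank 1 to 114.7 CPM at rank 200, and the lung and hippocampus levels lie at least 20 times lower and follow the liver rank only loosely.

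Most of the list was far beyond the limit of 20 times. The ratio of the liver mean to the higher of the other tissue means was 645 at the median and 99.0 and 3815 at the quartiles. It was at least 50 for 172 transcripts, at least 100 for 149, at least 1000 for 89 and at least 10000 for 29. Transcripts with no count in either other tissue were included in each of these numbers. With up to 3 counts allowed, some of them had a lower bound under 10000, such as 7468 for ENSMMUT00000014705.3 against the lung. The hippocampus held more than the lung for 110 transcripts, the lung more than the hippocampus for 78, and 12 had the same level in both. Those 12 had no count in any of the 16 lung and hippocampus libraries. In the lung alone 27 transcripts had no count in all 8 libraries, and in the hippocampus 13. The most abundant transcript with no lung count was ENSMMUT00000029982.3, at 7555 CPM in the liver. A count of 0 over the 8 lung libraries together allows up to 3 counts or 0.0160 CPM. With counting error alone allowed for, the liver level of this transcript was at least 470715-fold higher. Liver values are estimated counts and lung values whole counts, and the part of read assignment in such bounds was not tested. In the hippocampus the transcript had 64 counts over 8 libraries.

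A trace of the list was nonetheless found in every library of the other tissues. The summed level of the 200 transcripts was 570.1 to 788.5 CPM in the lung and 543.0 to 700.1 CPM in the hippocampus, against 341778 to 413517 CPM in the liver. The median transcript had 0.396 CPM in the lung and 0.468 CPM in the hippocampus. A count was present in all 8 lung libraries for 106 transcripts and in all 8 hippocampus libraries for 129. At least 10 CPM was reached by 15 transcripts in the lung and 13 in the hippocampus, and the 5 highest held 41.5% of the summed level in the lung and 42.8% in the hippocampus. In the lung these were led by ENSMMUT00000075671.1 with 139.6 ± 51.1 CPM (SD, n = 8), against 4356 CPM in the liver. In the hippocampus ENSMMUT00000008230.3 led with 138.2 ± 29.9 CPM, against 2880 CPM in the liver. Across the 200 transcripts the Spearman correlation of mean levels was 0.0913 between liver and lung, 0.324 between liver and hippocampus, and 0.757 between lung and hippocampus. The transcripts of a tissue share its libraries and are not independent of each other.

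The most abundant liver transcript was almost missing from the traces. ENSMMUT00000005417.3 had 52 counts in the lung of clinical animal 1 and 0 in the 7 other lung libraries. In the hippocampus it had 53 counts in clinical animal 1, 245 in clinical animal 4 and 0 in the other 6. ENSMMUT00000005421.3, the fourth in the list, had 3004 counts over the lung libraries and 5436 over the hippocampus libraries. The level of the first was 5.51 times that of the fourth in the liver, 0.0144 times in the lung and 0.0529 times in the hippocampus. These transcripts have identifiers close in number, and liver values are estimated counts while the others are whole counts. The part of read assignment in these ratios was not tested, so they do not show whether the list as a whole kept its liver proportions.

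A pair of other abundant transcripts was found in the libraries that held ENSMMUT00000005417.3, and in further hippocampus libraries. ENSMMUT00000005418.3, the sixth in the list, had 23 lung counts, all in clinical animal 1. In the hippocampus it had 159 counts in clinical animal 1, 70 in clinical animal 3, 254 in clinical animal 4, 46 in oral animal 3 and 70 in oral animal 4. ENSMMUT00000042132.2, the seventh, had 33 lung counts, again all in clinical animal 1, and hippocampus counts of 169 in clinical animal 1, 6 in clinical animal 3, 449 in clinical animal 4 and 4 in oral animal 3. The hippocampus library of clinical animal 4 held the highest level of 53 of the 200 transcripts and a count of 180 of them, more than any other hippocampus library. Even there, ENSMMUT00000005417.3 was at 7.47 CPM, or 0.00673% of its liver mean.

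The treatments were compared in the liver to ask whether the list differed with the route and form of the corticosteroid. None of the 200 transcripts passed the test, and as many were higher with oral Beta-P (100) as were lower (100). The fit was edgeR's quasi-likelihood test over 25064 liver transcripts, and a transcript was called where its fold change reached 1.5, its p-value was below 0.05 and its adjusted p (Benjamini-Hochberg, over all transcripts tested) was below 0.1. All 200 transcripts were tested and 0 were called, against 0% of all transcripts tested, and the smallest adjusted p in the list was 0.581 (0.473 over all transcripts). The median log2 fold change was -0.0013 in the list and -0.0044 over all transcripts. The median absolute log2 fold change was 0.21 and 0.19, respectively. The median standard error was 0.19 in the list and 0.25 over all transcripts. Log2 fold changes in the list ranged from -1.65 to 2.05. The transcripts at these ends, ENSMMUT00000011306.2 and ENSMMUT00000063580.1, each had 1 treatment mean under the 114.7 CPM of the last in the list.

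At an unadjusted p below 0.05 there were 24 transcripts of the list, or 12%, against 7.08% of all transcripts tested and 8.93% of the 605 others above the lower limit of the list. Of these 11 were higher with oral Beta-P, where 3.5% of all transcripts were, and 13 were lower, where 3.58% were. A change of 1.5-fold or more was found for 20 transcripts, or 10%, against 15.3% of all transcripts and 4.13% of the 605. The 4 libraries of one treatment all lay above the 4 of the other for 7 transcripts, or 3.5%, against 4.36% of all transcripts. These were 4 that were higher with oral Beta-P (1.97% of all transcripts) and 3 that were lower (2.39%). Some transcripts in these counts had 1 treatment mean under 114.7 CPM, the level of the last in the list. They ranked in it through the other treatment. At an unadjusted p below 0.05 they included ENSMMUT00000003971.3 and ENSMMUT00000063580.1, at 96.5 and 83.9 normalized CPM with the clinical treatment. With oral Beta-P, ENSMMUT00000004003.3 and ENSMMUT00000011306.2 were at 91.9 and 93.9 normalized CPM. All transcripts tested were not chosen this way. With gestational age in the model the count at an unadjusted p was 9, or 4.5%, against 5.29% of all transcripts. With sequencing run in the model it was 23, or 11.5%, against 6.16%. It ranged from 15 without clinical animal 4 (7.5%, against 6.51% of all) to 35 without clinical animal 1 (17.5%, against 6.40% of all) when 1 library was left out. With DESeq2 the count was 36, or 18%, against 6.39% of all. In a fit of all 24 libraries, from all 3 tissues, it was 18, or 9%, which is below the 12.2% of all.

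**Figure D2:**
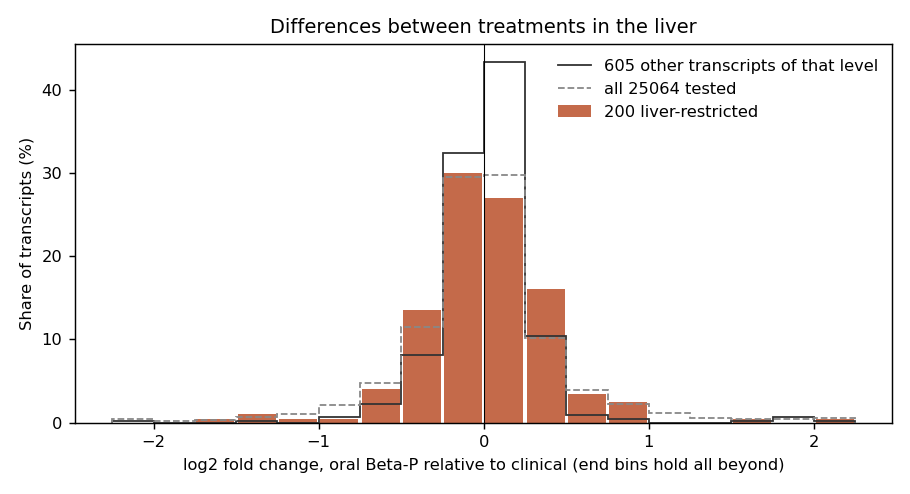
Share of transcripts (%) in bins of 0.25 of the log2 fold change, oral Beta-P relative to the clinical treatment, for the 200 liver-restricted transcripts (bars), the 605 other transcripts above the lower limit of the list, not matched in level (solid line), and all 25064 tested (dashed line). The list is centred at -0.0013, and 10% of it lies at a fold change of 1.5 or more in either direction, against 4.13% of the 605 and 15.3% of all.

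DESeq2, the tool used by the authors, called 6 transcripts of the list at the same thresholds, or 3%, against 1.09% of all transcripts it tested. Of these 2 were higher with oral Beta-P and 4 were lower, and in 4 of the 6 all libraries of one treatment lay above those of the other. The adjusted p of DESeq2 was 0.0140 to 0.0486 for the 4 of these named below. The remaining pair, ENSMMUT00000011306.2 and ENSMMUT00000067430.1, had the lowest log2 fold changes of the list, -1.65 and -1.47 (DESeq2, adjusted p = 0.0419 and 0.0302). The first ranked in the list through the clinical treatment, since it was at 93.9 normalized CPM with oral Beta-P. Both were also called in the fit of all 24 libraries. That fit took the 3 tissues of a fetus as independent and joined estimated with whole counts. The share of all transcripts called in that fit was not counted. Its calls are therefore no separate evidence.

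The most abundant transcript was alike in level in both groups. ENSMMUT00000005417.3 had a normalized level of 111883, 117216, 106274 and 121352 CPM in clinical animals 1 to 4 and of 120287, 105616, 91560 and 118181 CPM in oral animals 1 to 4. The groups overlapped, with oral animal 3 the lowest of the 8, and the log2 fold change was -0.07 with a standard error of 0.12 (edgeR, adjusted p = 0.961). Among the first 10 transcripts, 9 had a log2 fold change between -0.39 and 0.18 with standard errors of 0.12 to 0.22, and the smallest adjusted p of these 9 was 0.793.

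The second transcript was the exception among the first 10. ENSMMUT00000039542.2 was at 30095, 46349, 44962 and 51039 CPM with the clinical treatment and at 25326, 21083, 23396 and 34101 CPM with oral Beta-P. Clinical animal 1 and oral animal 4 overlapped, while the other 3 clinical animals lay above all 4 oral animals. The log2 fold change was -0.73 with a standard error of 0.20 (edgeR, adjusted p = 0.594). The transcript was among the calls of DESeq2, with an adjusted p of 0.0474, and over the 18 alternatives the adjusted p ranged from 0.0474 to 0.973. With gestational age in the model the log2 fold change was -0.43.

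The transcripts of the list with the smallest p-values, 2 in each direction, had groups that did not overlap. ENSMMUT00000000969.3 was at 861, 1114, 619 and 721 CPM with the clinical treatment and at 1824, 1294, 1138 and 1858 CPM with oral Beta-P. Every oral animal lay above every clinical animal, with a gap from 1114 to 1138 CPM, and the log2 fold change was 0.88 with a standard error of 0.23 (edgeR, adjusted p = 0.581, 0.0237 to 0.881 over the alternatives). ENSMMUT00000032971.3 was at 390, 351, 200 and 424 CPM with the clinical treatment and at 487, 732, 537 and 729 CPM with oral Beta-P. The groups were separate here too, with a log2 fold change of 0.86 and a standard error of 0.25 (edgeR, adjusted p = 0.594, 0.0239 to 0.942 over the alternatives).

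In the other direction, ENSMMUT00000057078.1 was at 1031, 865, 950 and 917 CPM with the clinical treatment and at 739, 677, 568 and 692 CPM with oral Beta-P. The groups were narrow and separate, with a log2 fold change of -0.49 and a standard error of 0.11 (edgeR, adjusted p = 0.581, 0.00237 to 0.944 over the alternatives), which is under a fold change of 1.5. ENSMMUT00000008230.3, the transcript that led the hippocampus trace, was at 2643, 3944, 3974 and 4726 CPM with the clinical treatment and at 2638, 1389, 1747 and 2128 CPM with oral Beta-P. Clinical animal 1 and oral animal 1 lay almost at the same level, and the log2 fold change was -0.95 with a standard error of 0.24 (edgeR, adjusted p = 0.581, 0.0140 to 0.959 over the alternatives). With gestational age in the model its log2 fold change was -0.51. None of these 4 transcripts passed the edgeR test. DESeq2 called ENSMMUT00000000969.3, ENSMMUT00000032971.3 and ENSMMUT00000008230.3 (DESeq2, adjusted p = 0.0237, 0.0486 and 0.0140, respectively), and the last 2 of these were also called in the fit of all 24 libraries, which has the limits given above. ENSMMUT00000057078.1 was called under no alternative.

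**Figure D3:**
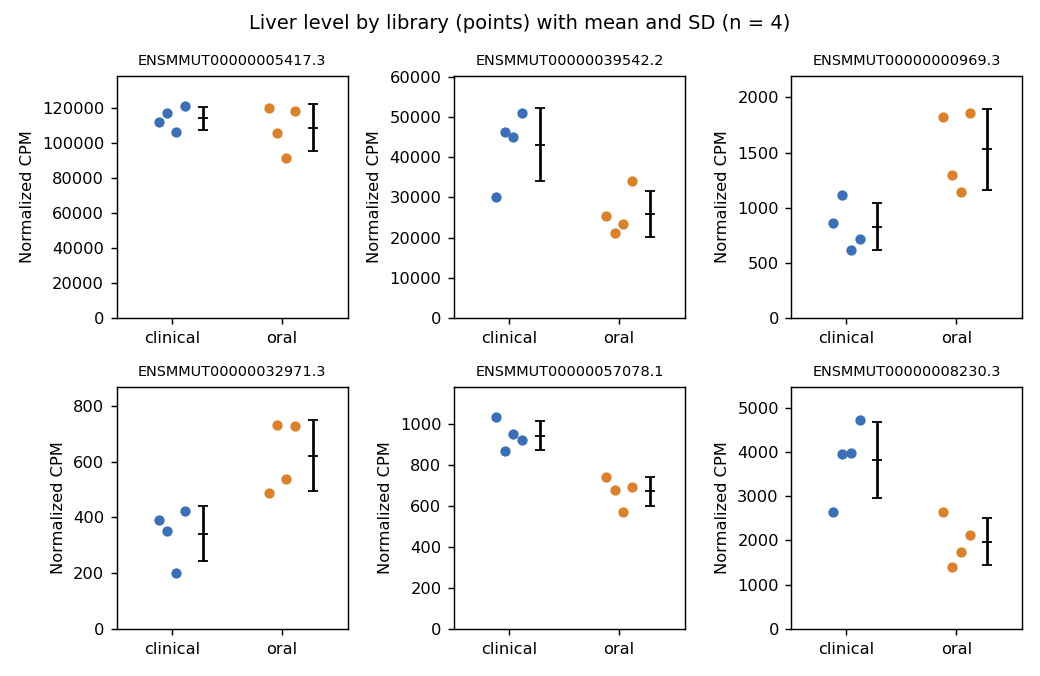
Normalized CPM in each liver library (points, animals 1 to 4 from left to right) with the mean and SD (n = 4 per treatment) of the 2 most abundant transcripts of the list and of the 4 with the smallest p-values. ENSMMUT00000005417.3 overlaps in part, with oral animals 2 and 3 below every clinical animal. ENSMMUT00000039542.2 overlaps through clinical animal 1 and oral animal 4. The other 4 panels show groups that do not overlap, with edgeR adjusted p-values of 0.581 to 0.594 and calls by DESeq2 for 3 of these 4.

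The share of liver counts in the list was lower with oral Beta-P in the mean, and the groups overlapped. It was 38.1, 39.4, 39.2 and 41.4% in clinical animals 1 to 4 (39.5% ± 1.34) and 36.7, 36.7, 34.2 and 39.2% in oral animals 1 to 4 (36.7% ± 2.05), a difference of -2.84 percentage points. The lowest share was in oral animal 3, the youngest and in its own sequencing run, and without it the difference was -2.003 percentage points. Gestational age also differed between the groups, so age and treatment cannot be told apart in this share. Over the list, falls in mean share summed to -4.32 percentage points and rises to 1.48. The 3 transcripts with the largest falls, picked for that, summed to -2.65, namely -1.68 for ENSMMUT00000039542.2, -0.578 for ENSMMUT00000012466.3 and -0.401 for ENSMMUT00000005417.3. The share of the other 197 was 21.4% ± 0.502 with the clinical treatment and 21.3% ± 0.904 with oral Beta-P. By number, 94 transcripts had a lower mean share with oral Beta-P and 106 a higher one.

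**Figure D4:**
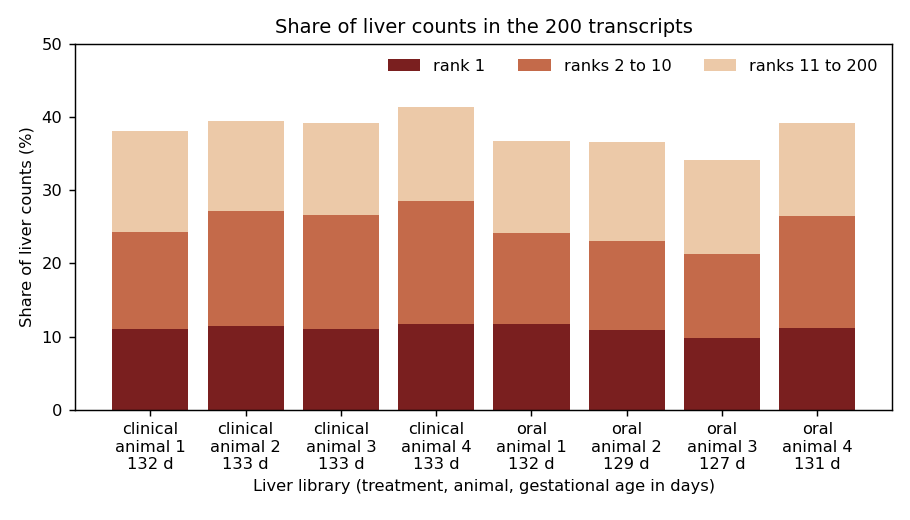
Share of all liver counts (%) held by the 200 transcripts in each of the 8 liver libraries, split into rank 1, ranks 2 to 10 and ranks 11 to 200, with gestational age in days under each bar. The total runs from 34.2% in oral animal 3 to 41.4% in clinical animal 4, and ranks 2 to 10 hold 15.4% ± 1.501 with the clinical treatment and 12.8% ± 1.64 with oral Beta-P (SD, n = 4), while ranks 11 to 200 hold 12.8% ± 0.642 and 13.0% ± 0.418.

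By rank, the shares overlapped between treatments in each part of the list. Ranks 2 to 10 held 13.3, 15.7, 15.7 and 16.8% of liver counts in the clinical animals and 12.4, 12.2, 11.5 and 15.2% in the oral animals, overlapping through clinical animal 1 and oral animal 4. Rank 1 held 11.3% in the mean of the clinical animals and 10.9% in that of the oral animals. Ranks 11 to 200 were the part with the smallest difference between the group means. Because shares of a library sum to the whole, a lower share of 1 transcript raises the share of others, and the test above was made on normalized levels.

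The spread between the 8 liver libraries was, at the median, larger in the list than in the 605 other transcripts above its lower limit, which were not matched in level. The SD of the log2 normalized level was 0.329 at the median of the list, 0.218 at the median of the 605 others and 0.302 over all transcripts tested. An SD over 1 was found for 13 transcripts, or 6.5% of the list, against 2.15% of the 605 and 5.00% of all. All 13 ranked at 55 or lower in the list. The median SD was 0.256 for ranks 1 to 50 and 0.345 for ranks 51 to 200. The highest library was less than 2 times the lowest for 110 transcripts and more than 10 times for 8, with a median of 1.89 times.

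The steadiest transcripts held their level within narrow limits. ENSMMUT00000005423.3 ranged from 453 to 547 CPM over the 8 libraries, with an SD of 0.096 on the log2 scale. ENSMMUT00000003379.3 ranged from 1133 to 1410 CPM (SD 0.11) and ENSMMUT00000031181.3 from 749 to 963 CPM (SD 0.12). At the other end, ENSMMUT00000076016.1 was at 1.13, 377, 55.7 and 48.2 CPM with the clinical treatment and at 595, 744, 39.9 and 173 CPM with oral Beta-P. Its highest library was 658 times its lowest and the groups overlapped, with a log2 fold change of 1.69 and a standard error of 1.34 (edgeR, adjusted p = 0.866).

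The next most variable transcripts also varied within both groups. ENSMMUT00000014705.3 was at 258, 108, 34.8 and 83.6 CPM with the clinical treatment and at 78.2, 10.8, 350 and 21.6 CPM with oral Beta-P (SD 1.69). ENSMMUT00000042078.2 was at 810, 82.7, 61.2 and 542 CPM and at 65.6, 60.8, 52.6 and 402 CPM, respectively (SD 1.65). In this transcript clinical animals 1 and 4 and oral animal 4 were high and the other 5 were between 52.6 and 82.7 CPM. ENSMMUT00000063580.1 had the largest log2 fold change of the list at 2.05 (standard error 0.63, edgeR, adjusted p = 0.624, 0.0482 to 0.928 over the alternatives). It was called in the fit of all 24 libraries, which has the limits given above. Its level was 54.7, 127, 43.1 and 111 CPM with the clinical treatment and 537, 131, 610 and 116 CPM with oral Beta-P. Only oral animals 1 and 3 stood above the clinical range by more than a few CPM. Its clinical mean, 83.9 normalized CPM, was under the 114.7 CPM of the last transcript of the list. Over both treatments its ratio to the lung was 20.4. Against the same lung mean of 10.7 CPM, the clinical mean alone was under the limit of 20 times. The transcript thus qualified through oral Beta-P.

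**Figure D5:**
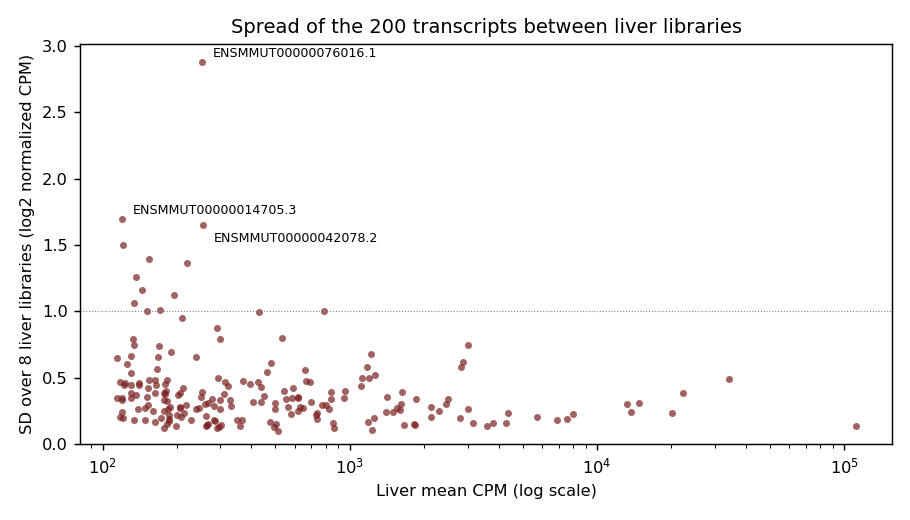
SD over the 8 liver libraries of the log2 normalized CPM of each of the 200 transcripts against its liver mean CPM (log scale), with a dotted line at an SD of 1. Above the line are 13 transcripts, all under 1000 CPM, and the 3 with the largest SD (2.88, 1.69 and 1.65) are labelled.

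High and low levels were found in all 8 liver libraries. The highest level of a transcript was in clinical animals 1 to 4 for 36, 16, 20 and 30 transcripts of the list and in oral animals 1 to 4 for 14, 29, 17 and 38. The lowest level was in the clinical animals for 8, 16, 63 and 20 transcripts and in the oral animals for 18, 16, 47 and 12. Clinical animal 3 and oral animal 3 thus held the lowest level most often.

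Some of the transcripts had identifiers next to each other in number. With steps of at most 3 in the number, 34 transcripts formed 14 runs. Whether a run belongs to 1 gene is not given in the tables used here, and how reads common to several transcripts were assigned is not given either. The largest run had 5 transcripts, from ENSMMUT00000005417.3 to ENSMMUT00000005423.3, and held 14.6% of liver counts, with an SD of the summed level of 0.14 on the log2 scale. In the run of 4 that starts with ENSMMUT00000020369.3 the SDs of single transcripts were 0.24 to 0.95 and the sum had an SD of 0.16. In the pair that starts with ENSMMUT00000028170.3 they were 0.38 and 0.45, and the sum had an SD of 0.40. A run of 3 around ENSMMUT00000029982.3, which held 2.02% of liver counts, had SDs of 0.18 to 0.20, and its sum 0.18. A sum follows its more abundant transcripts, and whether the spread lay between neighbours was not tested.

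Of all liver values 55.4% are not whole numbers, which estimated counts need not be. Values from 100000 up are written without decimals. Among the 180 transcripts of the list with every liver value under 100000, 141 or 78.3% had at least 1 value that is not whole, against 510 of 587 or 86.9% of the other transcripts above the lower limit of the list.

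In the lung and hippocampus the list was compared between treatments only as far as its traces allowed. The summed level was 679.1 ± 101 CPM with the clinical treatment and 611.9 ± 25.7 CPM with oral Beta-P in the lung, and 636.4 ± 51.3 and 610.0 ± 67.0 CPM in the hippocampus (SD, n = 4). The groups overlapped in both tissues. In the lung 97 of the 200 had enough counts for the test and 0 were called by edgeR, against 0.00369% of all transcripts tested. At an unadjusted p below 0.05 there were 7, or 7.22% of those tested, against 9.15% of all. In the hippocampus 109 were tested and 0 were called, against 0% of all. At an unadjusted p below 0.05 there were 8, or 7.34% of those tested, against 3.11% of all.

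DESeq2 called 2 transcripts of the list in the lung, where it called 1.21% of all, and 1 in the hippocampus, where it called 0.191%. ENSMMUT00000004346.3 had 208, 294, 127 and 103 lung counts with the clinical treatment and 80, 71, 52 and 61 with oral Beta-P, a log2 fold change of -1.29 (DESeq2, adjusted p = 0.0364, and 0.366 with edgeR). ENSMMUT00000028580.3 had 44, 37, 51 and 54 lung counts with the clinical treatment and 73, 78, 79 and 67 with oral Beta-P, a log2 fold change of 0.84 (DESeq2, adjusted p = 0.0580, and 0.368 with edgeR). The groups did not overlap in either transcript. In the lung, clinical animals 1 and 2, which had the highest counts of ENSMMUT00000004346.3, were in a sequencing run of their own, and clinical animals 3 and 4 and all oral animals in another. In the hippocampus ENSMMUT00000075671.1 had 156 to 285 counts with the clinical treatment (184 in clinical animal 4) and 1079, 558, 841 and 654 with oral Beta-P. Every oral library was above every clinical library, with a log2 fold change of 1.51 (DESeq2, adjusted p = 0.00113, and 0.9999 with edgeR). In that tissue the sequencing run nearly followed the treatment, since clinical animals 1 to 3 were in one run and clinical animal 4 and all oral animals in another. The part of the sequencing run in these values was not tested. Totals in that tissue were 22537044 to 32788826 counts with the clinical treatment and 32836217 to 35254898 with oral Beta-P.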

How the data were processed

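The authors deposited 1 table per tissue, without normalization, with whole counts per Ensembl transcript for the lung and hippocampus and estimated counts for the liver, which were rounded to whole numbers for the test. The submitters' processing notes name STAR, featureCounts and DESeq2. Why the liver counts are not whole, and how reads shared by transcripts were divided, is not given in the sources used here. All columns were matched to libraries by name. The 200 transcripts, and the rule for those named, were chosen with earlier results of these data known. The named transcripts are the 10 highest, those at the limits of the rule, the 2 with the smallest p-value in each direction, and the 3 with the largest and the smallest spread, and those that DESeq2 called in the lung and hippocampus were added after their values were seen.

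Treatments were compared within each tissue by the quasi-likelihood test of edgeR 4.0.16 (with limma 3.58.1 in R 4.3.3), with filterByExpr, TMM normalization and Benjamini-Hochberg adjustment over all transcripts tested. Standard errors were derived from the F statistic. Normalized CPM used TMM factors of 0.952 to 1.07, and 0.5 was added before log2 for SDs. DESeq2 1.42.0 was the first alternative. The scripts were tested on simulated liver counts. A count of 0 was taken to allow 3 counts, which covers counting error alone.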

Additional observations from a re-analysis of the deposited data

Results flagged for a closer look

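In 3 cases a value lay far from the other libraries of its group, by Dixon's test at the 95% level for 4 libraries. ENSMMUT00000005421.3 was at 19156 normalized CPM in the liver of clinical animal 1, where the other clinical animals had 20855 to 21138. ENSMMUT00000076016.1 was at 376.6 CPM in clinical animal 2, where the others had 1.13 to 55.7. ENSMMUT00000042078.2 was at 401.86 CPM in oral animal 4, where the others had 52.6 to 65.6. The test was applied to 56 groups of reported values, in which a rate of 1 in 20 would give 2.8. Over all 400 groups of the 200 transcripts, 27 or 6.75% passed it, in every one of the 8 libraries, with 1 in oral animal 1 as the fewest and 6 in oral animal 2 as the most.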

How the results depend on the processing

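The 0 calls of edgeR in the liver were kept under other normalizations, filters and covariates, within the larger sequencing run, without each library in turn and under other fold or number limits for the list. DESeq2 called 6 transcripts, where it called 1.09% of all, and the fit of all 24 libraries called 6, of which 4 were shared. The share of all transcripts called in the fit of all 24 libraries was not counted, so its calls have no share to be set beside. They are no separate evidence for the calls of DESeq2. The count at an unadjusted p below 0.05 was 24, and it was 9 with gestational age as a covariate, 13 among the 100 highest, 56 among all 440 qualifying, and 15 (without clinical animal 4) to 35 (without clinical animal 1) when each library was left out. It was 36 with DESeq2 (18%, against 6.39% of all) and 18 in the fit of all 24 libraries (9%, against 12.2% of all). The count with groups that did not overlap was 7, and it was 17 in the larger sequencing run, 18 among all qualifying (4.09%), and 10 to 28 when each library was left out. Over all transcripts the share that did not overlap was 4.36% with 8 libraries, 7.31% in the larger run and 6.47 to 8.86% without 1 library, against 8.5% and 5 to 14% of the list. DESeq2, added after the data were seen, called 2 in the lung and 1 in the hippocampus. With gestational age as a covariate the log2 fold change turned to 0.16 for ENSMMUT00000005417.3, 0.11 for ENSMMUT00000012466.3, 0.34 for ENSMMUT00000005421.3, 0.018 for ENSMMUT00000067180.1 and 0.11 for ENSMMUT00000005423.3, and the causes of these changes were not tested. With sequencing run as a covariate and in the larger run it turned to 0.0065 and 0.0067 for ENSMMUT00000005417.3, 0.089 in both for ENSMMUT00000005421.3 and 0.031 in both for ENSMMUT00000005423.3, and with library totals alone to 0.012 for ENSMMUT00000014705.3. Without 1 library at a time it ranged from -0.12 to 0.0067, from -0.19 to 0.089, from -0.054 to 0.031 and, for ENSMMUT00000014705.3, from -1.71 to 0.61, for these transcripts in the same order. The difference in share stayed between -3.67 (without oral animal 4) and -2.003 percentage points (without oral animal 3). The number qualifying was 374 to 478 under other CPM limits, medians or 1 treatment. The median log2 fold change of the list lay between -0.037 and 0.065, on both sides of 0. Of the values of named transcripts under the alternatives, 369 kept their direction and side of the threshold, 20 changed sign, none of them called, and 7 passed the threshold. No paired analysis was possible because each animal received only 1 treatment.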

Other observations

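The 240 transcripts that met the limits of 10 CPM and 20 times but ranked below the 200 held 1.01% ± 0.0894 of liver counts (SD, n = 8), with 0.982% ± 0.110 for the clinical treatment and 1.03% ± 0.0693 for oral Beta-P (n = 4). Their median liver level was 32.4 CPM, and 24 of them had no count in the 16 lung and hippocampus libraries. None was called by edgeR (smallest adjusted p = 0.581). At an unadjusted p below 0.05 there were 32, or 13.3%, against 7.08% of all transcripts tested, with 21 higher after oral Beta-P and 11 lower (3.5% and 3.58% of all). The treatments did not overlap for 11 of the 240, against 4.36% of all.

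Transcripts abundant in 1 tissue and at 0 in another were found in each pairing. With at least 10 CPM in the liver and no count in the 16 other libraries there were 36 transcripts, and 5 had at least 10 CPM in both lung and hippocampus and no count in the 8 liver libraries. Between the other tissues, 43 transcripts had at least 10 CPM in the lung and no count in the hippocampus, and 142 the reverse. With a ratio of 10 or 50 in place of 20 the 200 highest shared 177 and 172 transcripts with it.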
